A study of Mus musculus with 32 samples.

Results

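The genes described here are the 9 catenins and classical cadherins of the adherens junction, chosen by name from the 31053 genes of the count files: the cadherins Cdh1, Cdh2 and Cdh3, the catenins Ctnnb1 (β-catenin) and Jup (plakoglobin, also called γ-catenin), the α-catenins Ctnna1 and Ctnna2, and the p120-type catenins Ctnnd1 (p120-catenin) and Ctnnd2 (δ-catenin). All 9 were found by their Ensembl identifiers, 8 passed the filter on low counts (at least 1 CPM, the count scaled to a library size of 1000000, in at least 4 of 32 libraries), and Ctnna2 did not.

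All 32 libraries come from one mouse embryonic stem cell (ESC) line, C1, in which the coding sequence of β-catenin was deleted on both alleles and into which a doxycycline-inducible fusion was introduced with lentivirus. The fusion joins the β-catenin mutant S33Y, which is constitutively active, to mCherry and a destabilising domain; doxycycline starts its transcription, and trimethoprim (TMP, 10 µM) stabilises the protein. Every culture received TMP for 48 h, alone (C1) or with doxycycline. The doxycycline-treated cells were sorted by mCherry into a middle (C1M) and a high (C1H) fraction. C1 cells also passed the sorter, as living cells without an mCherry gate. Below, the word sorted stands for the fractions gated by mCherry and the groups grown from them. C1, C1M and C1H are the 3 groups of day 0. The remaining groups were collected after 4 days of monolayer differentiation in a serum-free medium: C1T, the β-catenin knockout kept in TMP alone, C1MV and C1HV, the sorted fractions with both inducers replaced by DMSO, and C1MDT and C1HDT, the sorted fractions kept in doxycycline and TMP. Each group had 4 biological replicates. Day 0 cells were grown with LIF, together with serum by the sample records and with 2 kinase inhibitors by the study's methods. The inhibitors act on MEK and on GSK3, and the paper uses the GSK3 inhibitor to activate the Wnt pathway. By the methods, LIF and both inhibitors were absent from the day 4 medium. Changes from day 0 to day 4 therefore cannot be told apart from their removal. Doxycycline, the sort gate and the level of the fusion changed together between C1 and the sorted fractions and cannot be told apart in these comparisons. At day 4 C1MV and C1HV also lacked the TMP that C1T received. Comparisons of C1MV and C1HV with C1T, and differences between their courses, cannot tell this apart from the earlier treatment and sort gate. In C1MDT and C1HDT, doxycycline, the sort gate and the earlier treatment likewise go together against C1T. All groups come from 1 engineered line.

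Classical cadherins are calcium-dependent transmembrane proteins whose outer domains bind the same cadherin on the neighbouring cell. Inside the cell, p120-catenin binds next to the membrane and slows cadherin turnover, β-catenin or plakoglobin binds the cadherin tail, and α-catenin links that complex to actin. β-catenin has another role as the nuclear partner of TCF/LEF factors in Wnt signalling, and plakoglobin, its closest relative, can take its place at the adherens junction and is also a component of desmosomes. ESCs hold together through E-cadherin, and a shift from E-cadherin to N-cadherin accompanies several fate transitions of the early embryo.

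The fusion carries its mutation in the stretch that marks β-catenin for degradation, and plakoglobin has a related stretch, so both are shown. The codon that S33Y changes, codon 33 of Ctnnb1, and the codon aligned with it in Jup, codon 24, are in capitals, and the reference coding sequences (GENCODE M21 transcripts, 5′ to 3′, codons 29 to 48 of Ctnnb1 and 20 to 39 of Jup) read as follows.
Ctnnb1: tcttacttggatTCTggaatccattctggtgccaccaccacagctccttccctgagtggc
Jup: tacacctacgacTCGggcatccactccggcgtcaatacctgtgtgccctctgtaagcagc
The capital codon encodes serine in both genes. In the 20 codons shown, 11 encode the same residue in both, and over the 743 aligned codons of the 2 reading frames 68.8% do. The deposited values are counts per gene, so neither the mutated codon nor the source of a Ctnnb1 read (fusion or what the deletion left of the locus) can be read from them.

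Libraries were made from the 3′ ends of polyadenylated RNA, and each value is the number of uniquely aligned reads of a gene. The 32 libraries held 1366951 to 3648787 gene counts (median 2402467.5), so 3 counts in a library correspond to 0.822 to 2.19 CPM. Levels are given as CPM after TMM scaling. A 3′ read does not depend on transcript length, but genes can differ in how well their 3′ ends are captured, and levels are therefore compared within a gene across groups and not between genes. Changes are log2 fold changes with their standard error (SE) from edgeR's quasi-likelihood test over 15280 genes, called at a Benjamini-Hochberg adjusted p (FDR) below 0.05. Pou5f1, Sox2, Utf1 and Lin28a, which mark pluripotent cells, summed to 804 to 1336 CPM in every library but moved in different directions. In C1T against C1, 2 of the 4 were called higher, Lin28a from a mean of 12.95 to 481 CPM and Utf1 from 32.55 to 299 CPM, and Sox2 was called lower, from 860 to 443 CPM. The naive pluripotency set of Zfp42, Klf2, Klf4, Klf5, Esrrb, Tfcp2l1, Nanog and Tbx3 summed to 7341 to 9133 CPM at day 0 and 1336 to 3362 CPM at day 4. Klf5 alone had a mean of 2981 CPM in C1 and 1024 CPM in C1T.

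Ctnnb1 (ENSMUSG00000006932, GRCm38 chr9:120929216-120960507, plus strand), the targeted gene, gave 8 to 43 counts in each library of C1, C1M, C1T, C1MV and C1HV and 44 to 133 in those of C1H, C1MDT and C1HDT. It stood at 8.81, 6.23, 5.19 and 11.0 CPM in the 4 C1 libraries, at 9.76, 12.1, 9.45 and 17.8 CPM in C1M, and at 40.6, 40.5, 48.7 and 34.9 CPM in C1H. The C1H libraries were all above the others of day 0, whereas C1M overlapped C1 (log2 fold change 0.61 ± 0.248 SE, FDR 0.0553). At day 4 the 4 libraries of C1T were between 7.18 and 12.4 CPM, those of C1MV between 6.91 and 12.1 CPM and those of C1HV between 4.13 and 8.60 CPM. C1MDT held 25.4, 25.8, 31.6 and 34.1 CPM and C1HDT 28.6, 36.3, 30.2 and 28.3 CPM, and these 8 libraries lay above all others of day 4. The level in C1HDT did not differ detectably from C1MDT (0.05 ± 0.164, FDR 0.992), although the cells had been sorted from different fractions. The order followed the labels for doxycycline, with C1M as the group in which the rise was not called. Ulk4, which ends on the opposite strand at the 3′ end of Ctnnb1, had 60 counts over all 32 libraries.

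**Figure D1:**
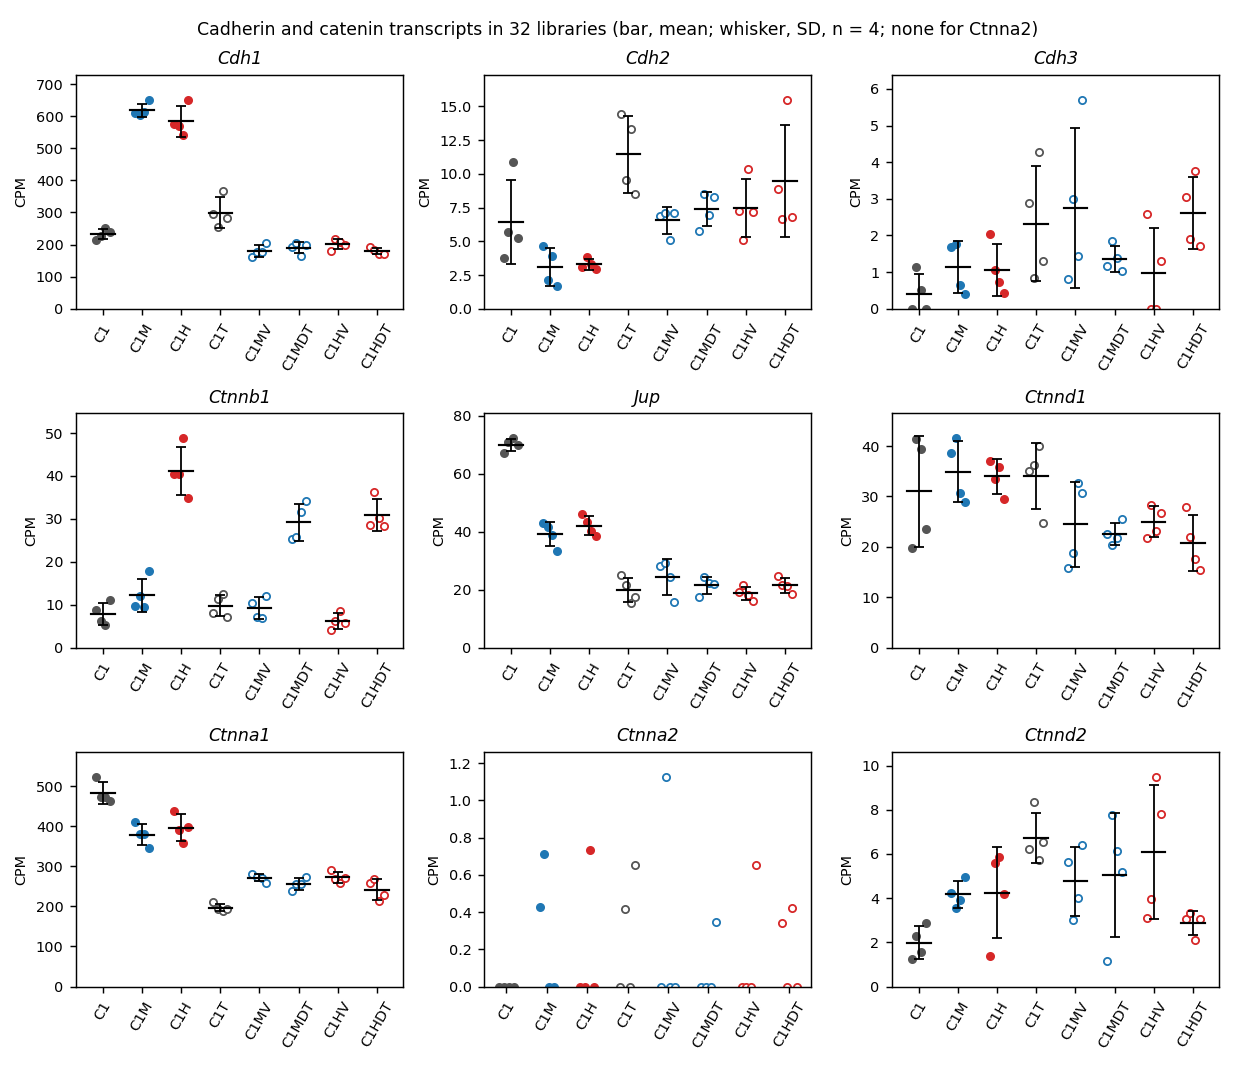
CPM (vertical axes, each from 0) of the 9 genes in every library of the 8 groups (horizontal axes), with filled points for day 0, open points for day 4, and grey, blue and red for knockout, middle and high fractions; bars are means and whiskers SD (n = 4). Cdh1 is at 540.5 CPM or above in all C1M and C1H libraries and at 366 CPM or below in all others, and Jup and Ctnna1 are highest in C1.

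Among the cadherins, Cdh1, which encodes E-cadherin, showed the clearest difference at day 0. Cdh1 (ENSMUSG00000000303, GRCm38 chr8:106603351-106670246, plus strand) was at 216, 228, 251 and 240.2 CPM in C1, at 611, 603, 612 and 649 CPM in C1M, and at 576, 569, 540.5 and 652 CPM in C1H. All 8 sorted libraries were far above the highest C1 library. Cdh1 rose 2.65-fold in C1M (log2 1.41 ± 0.078, FDR 5.77e-35) and 2.50-fold in C1H (1.32 ± 0.078, FDR 9.95e-33). Between C1H and C1M, which differed 3.39-fold in Ctnnb1 (log2 1.76 ± 0.18, FDR 1.56e-13), Cdh1 differed by -0.08 ± 0.073 on the log2 scale (FDR 0.711), and the ranges of the 2 groups overlapped.

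Over 4 days Cdh1 moved in opposite directions in the knockout and in the previously induced cells. C1T stood at 296, 254, 366 and 283 CPM, all above C1, although the lowest, 254 CPM, was just above the highest of C1, 251 CPM (log2 0.36 ± 0.081, FDR 6.56e-05). C1MV stood at 160.5, 176, 176 and 206 CPM and C1MDT at 194, 204, 165 and 199.6 CPM, and C1HV and C1HDT ranged from 179.8 to 217 CPM and from 170.3 to 192 CPM. Cdh1 thus fell in all 4 of these groups relative to their own day 0 fraction, by 1.80 in C1MV and 1.54 in C1HV, and 1.70 in C1MDT and 1.70 in C1HDT on the log2 scale (FDR 9.38e-40 or below). It also fell below the knockout of the same day in each of them, with log2 fold changes of -0.75 ± 0.082 in C1MV and -0.58 ± 0.082 in C1HV, and -0.66 ± 0.081 in C1MDT and -0.74 ± 0.081 in C1HDT (FDR 2e-09 or below), and no library of these groups reached the lowest of C1T. The difference between the day 0 to day 4 change of each sorted line of cells and that of the knockout was itself called, at -2.16 ± 0.113 in C1MV and -1.90 ± 0.113 in C1HV, and -2.06 ± 0.112 in C1MDT and -2.06 ± 0.113 in C1HDT.

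Keeping or withdrawing the inducers made no detectable difference to Cdh1 at day 4. C1MDT against C1MV gave 0.09 ± 0.083 (FDR 0.537) and C1HDT against C1HV -0.16 ± 0.084 (FDR 0.192), while Ctnnb1 in the same comparisons differed by 1.745 ± 0.206 and 2.26 ± 0.23. The order of the 8 group means of Cdh1 was C1M, C1H, C1T, C1, C1HV, C1MDT, C1MV and C1HDT. C1M and C1H overlapped each other, as did C1 and C1HV and the neighbours among the last 4, and the gaps from C1H to C1T, from C1T to C1 and within day 4 from C1T to the others were not bridged by any library.

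**Figure D2:**
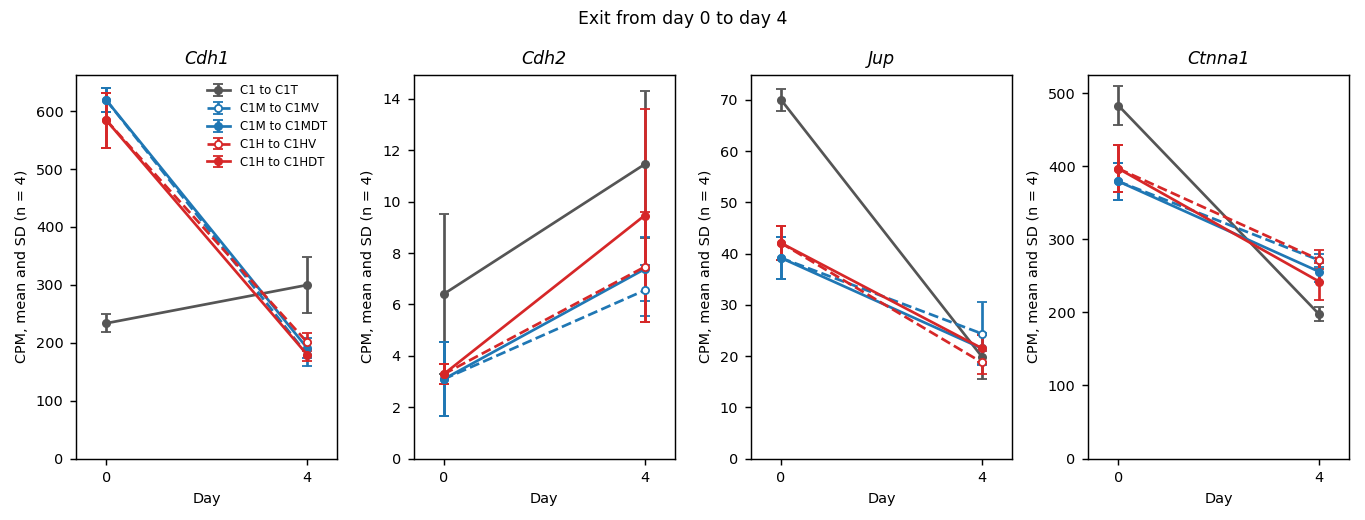
Mean CPM (vertical axes, from 0, whiskers SD, n = 4) of Cdh1, Cdh2, Jup and Ctnna1 at day 0 and day 4 (horizontal axes); grey is the knockout, blue the middle and red the high fraction, dashed lines and open points mark withdrawn inducers. Cdh1 rises from C1 to C1T and falls in the 4 other courses, Cdh2 rises in all 5, and Jup and Ctnna1 fall in all 5, most in the knockout.

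Cdh2 (ENSMUSG00000024304, GRCm38 chr18:16588877-16809246, minus strand) encodes N-cadherin, which is found in mesodermal and neural cells. It was low throughout, with 4 to 37 counts in a library. It was at 3.78, 5.66, 10.9 and 5.27 CPM in C1, at 4.67, 2.13, 3.91 and 1.65 CPM in C1M and at 3.07, 3.84, 3.30 and 2.94 CPM in C1H. Both sorted fractions overlapped C1, and the fall was near the threshold in C1M (-1.01 ± 0.368, FDR 0.0293) and in C1H (-0.92 ± 0.362, FDR 0.0468). Without replicate 3 of C1, the highest, it was -0.65 in C1M and -0.55 in C1H on the log2 scale and no longer called. The call in C1M was lost in 3 of 15 alternatives, each with a library left out, and that in C1H in 9 of 15, among them scaling by library size alone, no filter on low counts, DESeq2 and a fit of only the groups compared. At day 4 Cdh2 was at 14.4, 9.58, 13.4 and 8.49 CPM in C1T and was called higher than in C1 (0.87 ± 0.306, FDR 0.0125), a call lost without replicate 1 of either group. Relative to the own day 0 fraction it rose by 1.05 ± 0.358 in C1MV (FDR 0.0105) and 1.19 ± 0.353 in C1HV (FDR 0.00292), and with the inducers kept by 1.26 ± 0.34 in C1MDT (FDR 0.000918) and 1.50 ± 0.324 in C1HDT (FDR 2.85e-05), with no overlap in any of the 4. Against C1T it was called lower in C1MV (-0.83 ± 0.298, FDR 0.0234), a call lost without replicate 1 or 3 of C1T or replicate 3 of C1MV (FDR up to 0.105), and C1MDT (-0.625 ± 0.283, FDR 0.0781), C1HV (-0.60 ± 0.3, FDR 0.132) and C1HDT (-0.29 ± 0.275, FDR 0.445) were not called. C1MV itself was not called against C1MDT (0.21 ± 0.306 for C1MDT relative to C1MV, FDR 0.741) or C1HV (0.23 ± 0.323 for C1HV, FDR 0.912).

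The count of Cdh2 relative to Cdh1 within a library, on the log2 scale with 0.5 added to each count, combines the 2 patterns. It averaged -5.24 ± 0.54 (SD, n = 4) in C1, -7.67 ± 0.688 in C1M and -7.40 ± 0.237 in C1H, and both sorted fractions lay below C1 without overlap. At day 4 it averaged -4.70 ± 0.277 in C1T, -4.74 ± 0.246 in C1MV and -4.74 ± 0.432 in C1HV, and -4.67 ± 0.224 in C1MDT and -4.30 ± 0.577 in C1HDT. All 5 groups of day 4 overlapped one another, so that the ratio ended within the same range from day 0 means that were 2.43 and 2.16 apart from C1. Since 3′ capture differs between genes, only the change of this ratio can be read and not its size.

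**Figure D3:**
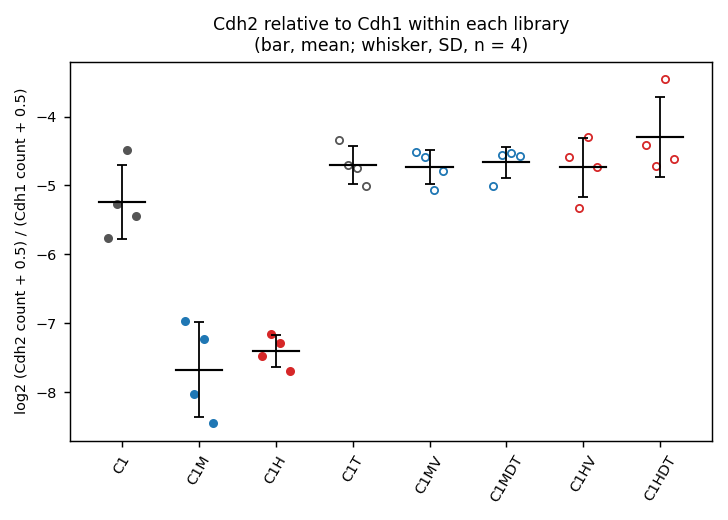
Log2 ratio of the Cdh2 to the Cdh1 count (vertical axis, 0.5 added to each) in every library of the 8 groups (horizontal axis), with filled points for day 0, open points for day 4, bars for means and whiskers for SD (n = 4). The C1M and C1H libraries lie between -8.45 and -6.97, and the 5 groups of day 4 between -5.33 and -3.46.

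Cdh3 (ENSMUSG00000061048, GRCm38 chr8:106510891-106557297, plus strand) encodes P-cadherin and lies next to Cdh1 on chromosome 8. It had at most 9 counts in any library and 0 to 2 in the 4 C1 libraries. It was at 2.88, 0.83, 4.29 and 1.31 CPM in C1T, which on the mean is at least 1.56-fold above 3 counts per C1 library. The test called this comparison (FDR 0.00937), the groups overlapped, and the call was lost without replicate 3 of C1T. None of the other comparisons called Cdh3. At day 0 it was at 0.41 to 1.77 CPM in C1M and 0.42 to 2.04 CPM in C1H, and both means, 1.13 and 1.06 CPM, were below 3 counts per C1 library, so that no fold is given and this depth cannot show whether Cdh3 differed at day 0.

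Jup (ENSMUSG00000001552, GRCm38 chr11:100368958-100397763, minus strand) was highest in the knockout at day 0. The C1 libraries held 67.2, 70.8, 72.2 and 70.0 CPM, those of C1M 42.9, 41.5, 38.8 and 33.4 CPM, and those of C1H 46.0, 43.2, 40.3 and 38.7 CPM. No sorted library reached the lowest of C1, and Jup was 1.78-fold lower in C1M (-0.84 ± 0.132, FDR 9.51e-08) and 1.66-fold lower in C1H (-0.73 ± 0.131, FDR 2.38e-06), with no detectable difference between C1H and C1M (0.11 ± 0.136, FDR 0.833). At day 4 Jup was at 24.95, 21.7, 15.3 and 17.6 CPM in C1T, 28.2, 29.2, 24.4 and 15.7 CPM in C1MV, 17.3 to 24.3 CPM in C1MDT, 16.3 to 21.6 CPM in C1HV and 18.4 to 24.8 CPM in C1HDT. All 5 day 4 groups overlapped, none of the 4 was called against C1T (FDR 0.149 or above), and every group was below its own day 0 group without overlap. The fall was 1.80 ± 0.153 in the knockout and between 0.64 ± 0.15 (C1MV) and 1.16 ± 0.162 (C1HV) in the others. The fall in the knockout differed from that in each of the others, by 1.165 ± 0.218 for C1MV (FDR 6.92e-06), 0.96 ± 0.218 for C1MDT (FDR 0.000243), 0.83 ± 0.218 for C1HDT (FDR 0.00161) and 0.64 ± 0.23 for C1HV (FDR 0.0331), the last lost without replicate 3 of C1T or replicate 2 of C1HV. These values are shares of RNA from bulk samples, sorted fractions or cultures, in which fewer cells with a transcript and less transcript per cell cannot be told apart.

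Ctnna1 (ENSMUSG00000037815, GRCm38 chr18:35118859-35254779, plus strand) encodes the α-catenin of most epithelial cells and, like Jup, was highest in C1. At day 4 it was called against C1T where Jup was not, but no test compared the 2 genes. In C1MV, for example, Jup differed from C1T by 0.33 ± 0.173 and Ctnna1 by 0.46 ± 0.078. It stood at 522, 474, 473 and 464 CPM in C1, 409.6, 380.3, 381 and 347 CPM in C1M, and 438, 392, 358 and 399 CPM in C1H. All C1 libraries were above all sorted libraries, by 0.35 ± 0.072 for C1M (FDR 4.46e-05) and 0.285 ± 0.072 for C1H (FDR 0.00105) on the log2 scale. At day 4 C1T held 211, 194.5, 189 and 194.5 CPM, the lowest of all groups. C1MV held 281, 274.5, 271.5 and 259 CPM and C1HV 290.4, 268, 259 and 271 CPM, whereas C1MDT ranged from 238 to 273 CPM and C1HDT from 212 to 267.5 CPM. All 16 libraries of these 4 groups were above the highest of C1T, and Ctnna1 was called higher than in C1T in C1MV (0.46 ± 0.078, FDR 2.93e-07), C1MDT (0.38 ± 0.078, FDR 2.66e-05), C1HV (0.46 ± 0.079, FDR 4.22e-07) and C1HDT (0.295 ± 0.078, FDR 0.00124). Between constant and withdrawn induction it was not called (C1MDT against C1MV -0.09 ± 0.075, FDR 0.531, and C1HDT against C1HV -0.17 ± 0.076, FDR 0.124). Ctnna1 thus was lower than in the knockout at day 0 and higher than in the knockout at day 4, and the test of that reversal was called for all 4 courses (0.58 ± 0.106 to 0.81 ± 0.106, FDR 3.54e-06 or below). Over the 8 group means Jup and Ctnna1 had a Pearson r of 0.941, and over the 32 libraries, which share groups and scaling, 0.91.

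Ctnna2 (ENSMUSG00000063063, GRCm38 chr6:76881637-77979699, minus strand), the α-catenin of neurons, had at most 3 counts in any library and 0 in each of the 4 C1 libraries. A count of 0 allows up to 3 counts, so no library stood above that level, and the gene was not tested.

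**Figure D4:**
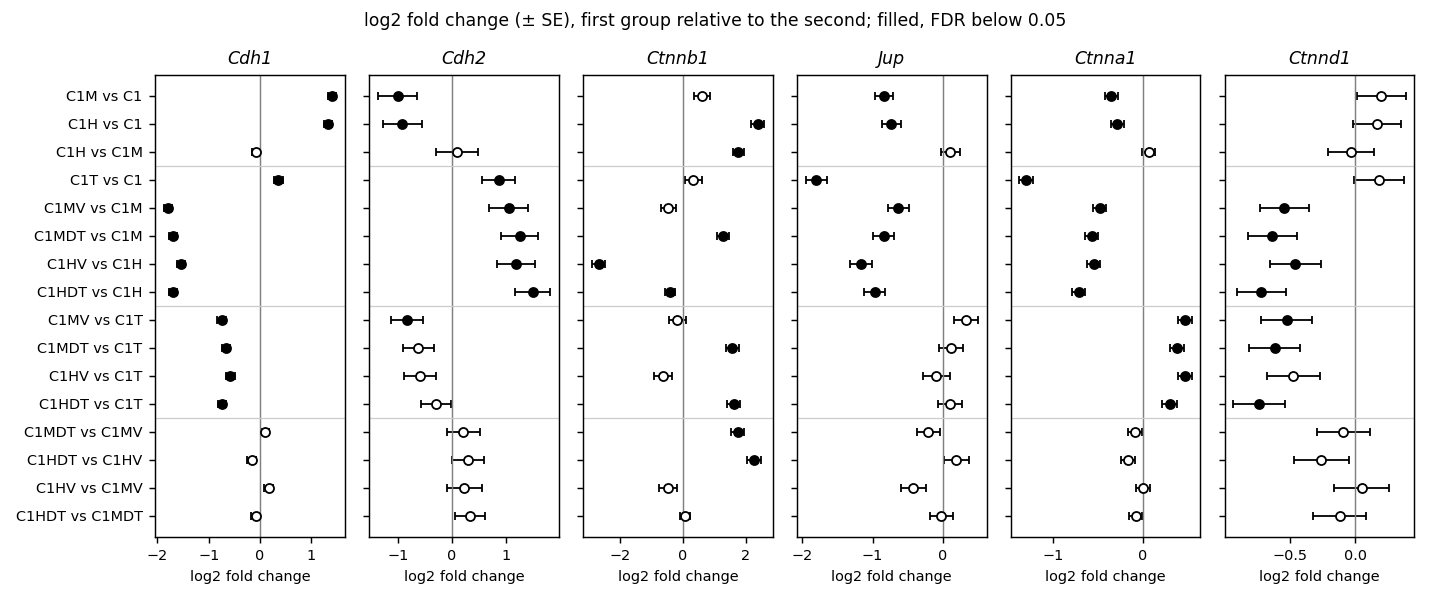
Log2 fold change (horizontal axes, whiskers SE) of Cdh1, Cdh2, Ctnnb1, Jup, Ctnna1 and Ctnnd1 in the 16 pairwise comparisons (vertical axis), first group relative to the second, filled where the FDR was below 0.05. Cdh1 is positive in C1M and C1H against C1 and negative in the 4 sorted groups of day 4 against both references, while the last 4 comparisons call none of the 6 genes but Ctnnb1.

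Ctnnd1 (ENSMUSG00000034101, GRCm38 chr2:84600071-84650765, minus strand), which holds cadherins at the membrane, did not differ detectably at day 0. It was at 19.7, 41.3, 39.5 and 23.5 CPM in C1, at 28.9 to 41.5 CPM in C1M and at 29.4 to 37.1 CPM in C1H, with 2 high and 2 low libraries in C1. In C1T it was at 35.03, 36.2, 40.1 and 24.8 CPM, and at day 4 it was lower in the induced groups, at 22.5, 20.3, 21.8 and 25.5 CPM in C1MDT and at 27.9, 22.0, 17.6 and 15.3 CPM in C1HDT. Both were called against C1T (-0.615 ± 0.192, FDR 0.00907, and -0.73 ± 0.196, FDR 0.00206), with 1 low C1T library inside their range. C1MV was also called against C1T (-0.52 ± 0.196, FDR 0.0345) and C1HV was not (-0.47 ± 0.201, FDR 0.0707). Against their own day 0 fraction all 4 fell, by 0.46 ± 0.194 in C1HV (FDR 0.0465) to 0.72 ± 0.188 in C1HDT (FDR 0.000888), while C1T against C1 gave 0.18 ± 0.192 (FDR 0.455). These calls for C1MDT and C1HDT, against C1T and against day 0, held without each library in turn, whereas those of C1MV and C1HV were each lost without several single libraries and in part with DESeq2.

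Ctnnd2 (ENSMUSG00000022240, GRCm38 chr15:30172593-31029341, plus strand), the p120-type catenin best known from neurons, had 2 to 22 counts in a library. It was at 1.26, 2.27, 1.56 and 2.88 CPM in C1 and at 6.24, 8.33, 5.72 and 6.53 CPM in C1T, a rise of 3.37-fold without overlap (1.755 ± 0.443, FDR 0.000403). C1M, at 3.55 to 4.95 CPM, was above all C1 libraries but not called (1.05 ± 0.465, FDR 0.0809). C1H, at 1.36, 5.58, 5.86 and 4.20 CPM, overlapped C1 through replicate 1 and was not called either (1.085 ± 0.461, FDR 0.0696). C1HDT held 3.06, 3.34, 2.10 and 3.07 CPM, below every C1T library (-1.21 ± 0.39, FDR 0.00948, lost without replicate 2 of C1T at FDR 0.0531). C1HDT was also called lower than C1HV, whose libraries spread from 3.10 to 9.47 CPM and overlapped it, at an FDR of 0.0498, and that call was lost under 9 of 15 alternatives.

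Counted over the genes, the calls can be read against the share of all 15280 genes called in the same comparison. In C1M against C1, 4 of the 8 tested genes were called (Cdh1 higher, Jup, Ctnna1 and Cdh2 lower), where 26.3% of all genes were. In C1H against C1 5 were called (Cdh1 and Ctnnb1 higher, Jup, Ctnna1 and Cdh2 lower), where 25.9% of all genes were called. In C1H against C1M Ctnnb1 was the only one, where 1.77% of all genes were called. In C1T against C1 6 were called, with Cdh1, Cdh2, Cdh3 and Ctnnd2 higher and Jup and Ctnna1 lower, where 49.3% of all genes were called. The day 4 groups against their day 0 fraction gave 5 in C1MV and 6 in C1HV, and 6 in C1MDT and 6 in C1HDT, beside 45.9%, 47.0%, 52.4% and 55.7% of all genes. Against C1T there were 4 in C1MV and 2 in C1HV, and 4 in C1MDT and 5 in C1HDT, beside 30.2%, 28%, 33.4% and 33.5%. These comparisons share C1, C1M, C1H or C1T libraries and are not independent of one another. Ranges that did not overlap were found for 25.4% of all genes in C1M against C1, 25.5% in C1H against C1, 42.4% in C1T against C1, 26.5% in C1MV and 25.9% in C1HV, and 30.3% in C1MDT and 30.5% in C1HDT against C1T, and over time for 38.9% in C1MV and 41.0% in C1HV, and 45.2% in C1MDT and 49% in C1HDT against their own fraction. They were found for 8.25% in C1H against C1M, 14.6% in C1MDT against C1MV and 17.1% in C1HDT against C1HV, and for 3.28% and 2.86% between the high and middle fractions of day 4, withdrawn and kept.

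Constant against withdrawn induction called Ctnnb1 alone in C1MDT against C1MV, where 12.6% of all genes were called, and Ctnnb1 and Ctnnd2 in C1HDT against C1HV, where 16.0% were. In C1HV against C1MV edgeR called none of the 8 genes (0.00654% of all genes), with Jup and Cdh1 at an unadjusted p under 0.05, and in C1HDT against C1MDT none (0% of all genes), with Ctnnd2 at such a p. DESeq2 called 0 of the 8 in both. For the differences between courses, 5 genes were called in C1MDT, 5 in C1HDT, 5 in C1MV and 4 in C1HV relative to the knockout course, beside 24.4%, 25.2%, 22.5% and 21.9% of all genes. These 4 comparisons share the libraries of C1 and C1T. The difference of the inducer effect between high and middle fractions called 0 of the 8 genes by edgeR and by DESeq2, with 3 (Ctnnd2, Cdh1 and Cdh3) at an unadjusted p under 0.05 and 0% of all genes called.

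The wider junction was read from lists of genes with stated roles. Of 20 adherens junction partners, all tested, 3 were called higher and 3 lower in C1M against C1, and the median log2 fold change was -0.06 beside 0.06 for all genes. The 3 lower ones were Plekha7, which ties p120-catenin to microtubules (-0.91 ± 0.104), Iqgap1, a scaffold that binds β-catenin and E-cadherin (-0.56 ± 0.065), and Tjp1, the tight junction scaffold ZO-1 (-0.48 ± 0.121). Plekha7 was at 130 to 198 CPM in C1 and 78.0 to 97.0 CPM in C1M, without overlap. In C1T against C1, 9 rose and 6 fell, led by Nectin2, a nectin of the adherens junction (1.76 ± 0.102), the actin crosslinker Actn4 (1.715 ± 0.099) and Ajuba, a LIM protein that binds α-catenin (1.455 ± 0.101). Actn4 was at 554 to 693 CPM in C1T and at most 348 CPM in every other library of day 4, with log2 fold changes of -1.255 to -1.33 against C1T in the 4 sorted groups. Ajuba rose further, to 228 to 324 CPM in those 4 groups from 174 to 186 CPM in C1T. The counts against C1T were 4 higher and 5 lower in C1MV, 5 and 5 in C1MDT, 5 and 5 in C1HV and 6 and 5 in C1HDT.

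Of 8 relatives of the catenins 6 were tested. Ctnnbip1, which blocks β-catenin from TCF factors, was the 1 gene called in C1M against C1 (0.32 ± 0.099) and was higher with the inducers kept than withdrawn, by 0.54 ± 0.088 in C1MDT and 0.84 ± 0.091 in C1HDT, the only 1 of the 6 called in either comparison. Of 20 other cadherins 10 were tested, and 1 rose and 2 fell in C1T against C1, where 49.3% of all genes were called. The 2 that fell were Cdh22, at 14.3 to 31.7 CPM in C1 and 0.95 to 5.22 CPM in C1T (-2.70 ± 0.313), and Cdh20, with 0 counts in C1T and a mean of 1.39 CPM in C1, below 3 counts per library, for which no fold is given. Cdh6 was the only 1 of the 10 called against C1T, and was higher in all 4 sorted groups: C1T had at most 2 counts in a library, and the mean was at least 3.87-fold higher than 3 counts per C1T library in C1MV, 6.76-fold in C1MDT, 2.75-fold in C1HV and 5.46-fold in C1HDT.

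The desmosome, which shares plakoglobin with the adherens junction, had 6 of 8 listed genes tested. Of these 3 fell and none rose in C1T against C1, where 49.3% of all genes were called. Dsp (desmoplakin, which anchors intermediate filaments) fell from 129 to 151 CPM in C1 to 10.0 to 15.7 CPM in C1T (-3.445 ± 0.14), and the desmosomal cadherin Dsg2 from 128 to 156 CPM to 28.1 to 42.7 CPM (-1.98 ± 0.11). In C1MV, C1MDT, C1HV and C1HDT Dsp was at 34.4 to 64.2 CPM and Dsg2 at 115 to 152 CPM, above C1T in every library, by 1.74 to 2.105 for Dsp and 1.73 to 1.87 for Dsg2 on the log2 scale. These were the 2 genes of the list called higher than C1T in each of the 4 groups, while Evpl (envoplakin) was called lower in C1MV (-1.41 ± 0.47) and C1HV (-1.315 ± 0.485), Perp, a desmosomal membrane protein, lower in C1HV (-0.90 ± 0.349), and none lower in C1MDT and C1HDT. At day 0 Dsp was lower in C1M (-0.52 ± 0.099) and Dsc2, another desmosomal cadherin, higher (1.21 ± 0.33). The list was thus mixed at day 0, with 2 higher and 1 lower in C1M and 2 higher and 2 lower in C1H. The shares of all genes called there were 26.3% and 25.9%.

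**Figure D5:**
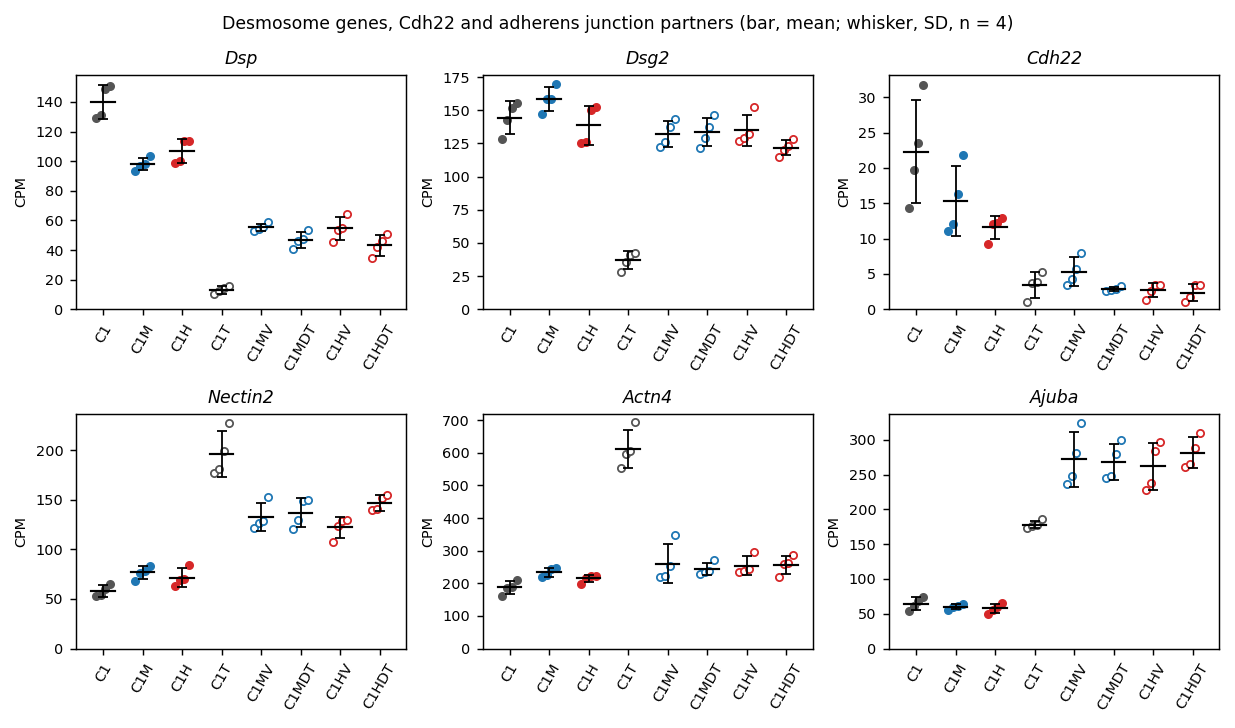
CPM (vertical axes, from 0) of Dsp, Dsg2, Cdh22, Nectin2, Actn4 and Ajuba in every library of the 8 groups (horizontal axes), drawn with bars for means and whiskers for SD (n = 4). Dsp and Dsg2 are lowest in C1T, at or below 15.7 and 42.7 CPM, Actn4 and Nectin2 are highest there, and Ajuba is at 174 CPM or above in all day 4 libraries and at 74.7 CPM or below at day 0.

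Among 14 genes that regulate cadherin transcription or splicing, 13 were tested. At day 0 Zeb1, a repressor of Cdh1 in epithelial cells, was lower in C1M (-0.75 ± 0.11, FDR 1.19e-08) and C1H (-0.73 ± 0.11, FDR 2.2e-08), and Grhl2, an activator of epithelial genes, was higher in C1H (1.31 ± 0.301, FDR 0.000282). Zeb1 stood at 100.2 to 151 CPM in C1 and at 61.0 to 80.4 CPM in the sorted libraries. Snai3 was detected in C1M at 4.67 and in C1H at 5.36 CPM on the mean and had at most 1 count per library in C1, at least 3.14-fold and 3.60-fold above 3 counts per C1 library. The list counts were 1 higher and 1 lower in C1M and 2 higher and 1 lower in C1H. Of all genes 26.3% and 25.9% were called there. At day 4 Grhl2 was at 12.0 to 20.0 CPM in C1T and lower in all 4 sorted groups (-0.87 ± 0.264 to -1.66 ± 0.28), and Esrp1, an epithelial splicing regulator, was lower in C1MV (-1.83 ± 0.359), C1HV (-0.94 ± 0.332) and C1MDT (-0.745 ± 0.306, FDR 0.0489). Snai1, a repressor of Cdh1, was called higher than in C1T in all 4 sorted groups. Its mean of 0.54 CPM in C1T was below 3 counts per library (1.52 CPM), so no size of the change is given. The list counts against C1T were 1 higher and 2 lower in C1MV and C1HV, 1 and 4 in C1MDT and 1 and 1 in C1HDT, where the others lower in C1MDT were Grhl1, a relative of Grhl2 (-1.23 ± 0.446, FDR 0.0228), and Zeb2, another repressor of Cdh1 (-0.74 ± 0.285, FDR 0.0338). Of 12 genes of cadherin turnover and processing, all tested, 1 rose and 7 fell in C1T against C1, among them the E-cadherin sheddase Adam10 (-0.84 ± 0.173). In C1MV, C1MDT, C1HV and C1HDT 6, 5, 5 and 5 were called higher than in C1T and none lower, led by Rab11a, which recycles cadherin to the membrane, at 34.98 to 42.2 CPM in C1T and 63.1 to 106 CPM in the other 4 groups.

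Markers of cell types moved with these comparisons. Between C1 and the sorted fractions of day 0 the summed naive pluripotency markers went from 8550 to 9133 CPM to 7341 to 7915 CPM. Of these 8 markers 6 were lower and 2 higher in C1M, and 4 were lower in C1H. At day 4 the 10 endoderm markers (Gata4, Gata6, Sox17, Sox7, Foxa2, Dab2, Lama1, Lamb1, Col4a1 and Col4a2) summed to 114 to 128 CPM in C1T, with Sox17 and Sox7 at or below 3 counts in each library, and to 1127 to 2327 CPM in the 4 sorted groups, with 10 of 10 called higher in each. The naive pluripotency set was called higher than C1T for 8 of 8 genes in C1MV and C1HV, at 2731 to 3362 CPM. In C1MDT and C1HDT, at 1517 to 1825 CPM, 1 gene of this set was called higher in each and 4 and 2 lower. Post-implantation epiblast markers summed to 1856 to 2278 CPM in C1T and 750.2 to 1361 CPM in the other day 4 groups. The 6 fibroblast markers summed to 7.27 to 9.11 CPM in C1 and 13.45 to 19.8 CPM in C1M and C1H, with Postn and Lum at or below 3 counts in every library. Thy1, a surface protein, was the 1 of them called higher in each sorted fraction, at means of 9.86 CPM in C1M and 10.8 CPM in C1H, at least 6.63-fold and 7.25-fold above 3 counts per C1 library, while the collagen gene Col1a1 was called lower in C1H (-1.27 ± 0.468, FDR 0.0327), with means of 5.15 CPM in C1 and 2.105 CPM in C1H. At day 4 they summed to 2.40 to 7.63 CPM in C1T and 4.47 to 14.5 CPM in the sorted groups. The 5 trophectoderm markers summed to 12.5 to 24.8 CPM in C1T and 29.4 to 58.8 CPM in the sorted groups of day 4, where the keratins Krt8 (1.88 ± 0.34 to 2.67 ± 0.298) and Krt18 (1.16 ± 0.237 to 1.51 ± 0.225) were called higher in all 4, Hand1 was called lower in C1MDT (-1.79 ± 0.717, FDR 0.044) and Elf5 stayed at or below 3 counts in every library. The 6 neural markers summed to 42.9 to 53.9 CPM in the day 0 groups, 176.9 to 213.5 CPM in C1T and 210.8 to 285.4 CPM in the sorted groups of day 4, with 4 higher and none lower in C1T against C1, led by Tubb3 (2.62 ± 0.164) and Sox1 (2.025 ± 0.131), and Pax6 at least 16.1-fold above 3 counts per C1 library. Against C1T 1 was called higher in C1MV and C1HV, 2 in C1MDT and 3 in C1HDT, and Pax6 was lower in all 4. The 6 mesoderm markers, 4 of them tested, summed to 54.6 to 60.7 CPM in C1, 32.6 to 47.1 CPM in C1M and C1H and 12.4 to 28.3 CPM at day 4, with Kdr (-2.51 ± 0.354) and Eomes (-1.10 ± 0.178) lower in C1T against C1, none called against C1T, and T at or below 3 counts in every library. The part of these cell types in the changes of Cdh1, Cdh2, Ctnna1, Ctnnd1, Ctnnd2 and Dsp was not tested.

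The genes whose group means went most like those of each cadherin or catenin, by Pearson r of mean log2 CPM, are given as a description. They were picked as the highest among all tested genes over only 8 groups, so a high r is in part the result of that choice. Sgcz, Wdr95 and Pax3 among them were low, at a mean log2 CPM of 0.05, 0.46 and 0.86. For Cdh1 they were Clgn (r 0.991, and 0.946 over the 32 libraries), Wdr95 (0.991 and 0.864) and Pax3 (0.987 and 0.86). For Jup they were Sec14l1 (0.991 and 0.923), Srrd (0.990 and 0.658) and Sgcz (0.988 and 0.728), and for Ctnna1 Rreb1 (0.996 and 0.95), Tnip2 (0.993 and 0.845) and Tacc2 (0.992 and 0.958). Ctnnd1 had Rbm28 first (0.991 and 0.625), Cdh2 Mrps5 (0.987 and 0.535), Ctnnb1 Pate2 (0.958 and 0.557), Ctnnd2 Adm (0.957 and 0.395) and Cdh3 Rom1 (0.969 and 0.365). Among the members, Cdh1 and Cdh2 had an r of -0.778 over groups and -0.634 over libraries, and Cdh1 and Ctnnd1 of 0.858 and 0.632.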

How the data were processed

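RNA of 32 samples was prepared with a 3′ mRNA kit and sequenced as single reads of 1 library each. As deposited, the values are counts: after trimming with bbduk (bbmap 37.31), the authors placed the reads on mm10 using STAR, and htseq-count gave the number with a unique alignment in every Ensembl 93 gene, with no normalisation. The strand setting is not given in the sources used here. Between 10.1% and 23.1% of unique reads fell in no gene and stayed out of library sizes. Of 31053 identifiers, 31011 were named from GENCODE M21 (GRCm38), and the 9 genes matched by symbol.

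Counts were scaled by TMM (factors 0.946 to 1.045) and fitted with edgeR 4.0.16 (R 4.3.3) as quasi-likelihood models of the 8 groups over all 32 libraries, for genes at 1 CPM or more in at least 4 libraries. Calls required a Benjamini-Hochberg FDR under 0.05 over all 15280 tested genes, and a fold against a group with at most 3 counts in each library was set against 3 counts per library. The model was tested on simulated data for C1T against C1: it recovered 56% of genes changed by 1 and 75% of those changed by 2 on the log2 scale, with 4.38% false calls, and for the difference (C1HDT - C1T) - (C1H - C1) 56% and 62%, with 4.84%. The members and lists were chosen with earlier results of these data known. From each list and comparison, up to 3 called genes with the largest change, no overlap and a mean log2 CPM of at least 1 could be named, as were the 3 genes closest in pattern to each member; Snai1 in C1HDT, Evpl in C1MV, Perp, Cdh20, and Hand1, Grhl1, Zeb2 and Esrp1 in C1MDT were named after their values were seen. Files hold no columns of other samples or of the authors' own comparisons.

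Alternatives were RLE or library-size scaling, 2 other filters, a replicate block, only the groups compared, DESeq2 1.42.0 and each library left out in turn. No 2 replicates agreed within sampling noise (chi-square per degree of freedom 1.51 to 4.25). Replicates are labelled as biological, with no statement of separate cultures and from the same experiment, so p-values measure the spread between these samples. Floors of 3 counts cover counting error only, and each ± is an SE of the model or an SD over libraries.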

Additional observations from a re-analysis of the deposited data

Results flagged for a closer look

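Of 63 sets of 4 libraries (a gene in a group), 1 held a library far from the other 3, where chance gives about 1 in 20: Cdh2 in C1MV replicate 3, the lowest at 5.09 CPM beside 6.85 to 7.14 CPM in the others.

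The change from day 0 to day 4 differed between the knockout course and the course of a sorted fraction, by an interaction term in the edgeR model, in 19 cases, each given as the change of the sorted fraction minus that of the knockout on the log2 scale. For Cdh1 the difference was -2.06 in C1MDT (FDR 2.66e-36), -2.06 in C1HDT (FDR 3.43e-36), -2.16 in C1MV (FDR 8.78e-38) and -1.90 in C1HV (FDR 1.31e-32). For Jup it was 0.96, 0.83, 1.165 and 0.64, and for Ctnna1 0.73, 0.58, 0.81 and 0.75 in the same order (FDR 8.02e-09, 3.54e-06, 1.53e-10 and 3.86e-09 for Ctnna1). For Ctnnd1 it was -0.81 in C1MDT (FDR 0.0181), -0.90 in C1HDT (FDR 0.0087) and -0.72 in C1MV (FDR 0.0433). The C1MDT call was lost without C1 replicate 1 or 4, C1M replicate 1 or 2 or C1T replicate 2 (FDR up to 0.0877), and the C1MV call in 11 of 23 alternatives, among them DESeq2 and a fit of only the groups compared. For Ctnnd2, which has at most 22 counts in a library, it was -2.29 in C1HDT (FDR 0.00171) and -1.61 in C1MV (FDR 0.0358), the latter lost in 8 of 23 alternatives, DESeq2 and 7 left-out libraries (FDR up to 0.103). For Ctnnb1 it was 0.96 in C1MDT (FDR 0.0235) and -3.02 in C1HV (FDR 2.8e-12). The C1MDT call of Ctnnb1 was lost without C1 replicate 4 or C1T replicate 1 (FDR up to 0.125).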

How the results depend on the processing

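The 76 calls on single members were recomputed in 1290 alternative values: 1212 kept direction and call, 78 kept direction and lost the call, and 0 changed direction. DESeq2 gave no adjusted p for Ctnnb1 in C1H against C1M (log2 fold change 1.77, unadjusted p 1.04e-18), so it has no count there. Calls of Cdh1, Jup and Ctnna1 held in every alternative, except Jup in the difference between the C1HV and knockout courses, lost without C1T replicate 3 or C1HV replicate 2. The lost calls were otherwise those of Cdh2, Cdh3, Ctnnd1, Ctnnd2 and, in C1HDT against C1H and in the C1MDT course, Ctnnb1. The number of members called moved by over 1.5 times in 4 comparisons. In C1HDT against C1HV, 2 members became 1 with no filter on low counts and 1 with the replicate block, and 1 to 3 with a library left out (1 without C1HV replicate 3 or 4 or C1HDT replicate 1, 3 or 4). In C1MV against C1T, 4 became 2 to 5 (2 without C1T replicate 1 or 3). In the difference of the C1MDT and knockout courses, 5 became 3 to 6 (3 without C1 replicate 4). In that of the C1MV and knockout courses, 5 became 3 with DESeq2 and 3 to 5 with a library left out (3 without C1 replicate 1, C1M replicate 1, C1T replicate 2 or C1MV replicate 2).

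The labels number the replicates of each group, and same-numbered samples did not deviate together (mean correlation -0.0016 within numbers and 0.00054 between, range -0.067 to 0.049 over 112 pairs), so they share only a number. Apart from Ctnnd2 in C1HDT against C1HV (-1.05 with the block), the replicate block changed no call on a member.

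Over all genes, C1H against C1M called 271 genes, 570 in a fit of those groups alone and 116 to 234 with a library left out. Scaling by library size alone moved the median log2 fold change to 0.119 in C1M against C1 and 0.121 in C1H against C1, and the share of higher among called genes from 54.3% to 64.6% and from 53.3% to 66.5%; Jup (-0.77 and -0.65) and Ctnna1 (-0.29 and -0.21) stayed lower and called. The Cdh2 to Cdh1 ratio differed from C1T by -0.04 in C1MV, 0.03 in C1MDT and -0.04 in C1HV, and these differences, which lie within the spread, change sign with 2 added to each count (0.005 and 0.017 in C1MV and C1HV) or with a library left out. Depth limits Cdh2, Cdh3, Ctnna2 and Ctnnd2, whose counts per library stay at or below 37.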
